A study of Mus musculus with 8 samples.

Results

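Heat shock protein chaperones were represented by 10 genes, chosen by symbol: *Hspa8*, *Hspa4*, *Hsph1*, *Hsp90aa1* and *Hsp90ab1* of the cytosol, *Hspa5* and *Hsp90b1* of the endoplasmic reticulum (ER), and *Hspa9*, *Hspd1* and *Hspe1* of the mitochondrion. Of the 52550 genes in the count table, 1 row was found for each of the 10, and all 10 passed the filter on low values. A list of 96 related chaperones, co-chaperones and heat shock transcription factors was described beside them, and 83 of these passed the filter.

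In RIP-seq, RNA held by a tagged protein is precipitated with an antibody and sequenced beside the input RNA of the lysate. The protein was eIF4A2, an RNA helicase of translation initiation and a close relative of eIF4A1. All 8 libraries came from *Eif4a2* KO mouse embryonic stem cells (ESCs), kept in ES-DMEM with 15% FBS, 10 ng/ml LIF, 1.5 µM CHIR99021 and 0.5 µM PD0325901 (2i). There were 4 groups of 2 libraries. Input EV and RIP EV came from KO ESCs with the empty vector (EV), and these cells hold no Flag-tagged protein, so that RIP EV is the background of the assay. Input Flag-eIF4A2 and RIP Flag-eIF4A2 came from KO ESCs that re-expressed Flag-eIF4A2. Both RIP groups were precipitated with 5 µg of anti-Flag antibody over 3 h. The study re-expressed either full-length eIF4A2 or a truncated isoform with a premature termination codon, and the sample titles name neither. It describes these cells as clones carrying a transposon vector, and counts 2 clones of each isoform as its biological replicates. In the labels of RIP Flag-eIF4A2 replicate 2, 1 field names Eif4a3 and the others Eif4a2. For the EV replicates no such origin was found in the labels or methods, so the spread between the EV libraries, which enters every fit on 8 libraries, may be technical.

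Chaperones of the HSP70 family bind short hydrophobic stretches of unfolded proteins in a cycle driven by ATP, which J-domain proteins start and nucleotide exchange factors reset. HSP110 proteins are distant HSP70 relatives that act mainly as exchange factors, and HSP90 proteins act later, with many co-chaperones, on near-native clients such as kinases and steroid receptors. The mitochondrial chaperonin, made of HSP60 rings with HSP10 lids, folds proteins inside a closed chamber. The heat shock factor HSF1 drives the cytosolic and mitochondrial genes under proteotoxic stress, and the unfolded protein response drives the ER genes. Stem cells carry high levels of many of these mRNAs without stress.

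Letters that match 2 known motifs, the heat shock element and the ER stress element, lie close to the start sites of several members. They are shown to tell which of the members searched hold the same letters. *Hspd1* and *Hspe1*, on opposite strands, hold the same matched bases. Promoter windows of RefSeq (GRCm38.p6, 250 bases before to 50 after a start site) were found for 6 members, with 8 windows in all. The remaining members were not searched. Both strands were searched for the heat shock element (GAANNTTCNNGAA) and for the ER stress element (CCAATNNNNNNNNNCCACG, which holds a CCAAT box). Capitals mark the matched letters, and each line reads 5′ to 3′ on the strand of the gene.
*Hspe1*, chr1:55088054-55088081, plus strand: gtccgTTCTAGAACCTTCCGGAAggccc
*Hspd1*, the same bases on the minus strand: gggccTTCCGGAAGGTTCTAGAAcggac
*Hspa5*, chr2:34772020-34772048, plus strand: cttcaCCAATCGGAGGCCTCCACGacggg
*Hsp90b1*, chr10:86705633-86705661, minus strand: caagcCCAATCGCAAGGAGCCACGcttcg
*Hsp90b1*, chr10:86705528-86705556, minus strand: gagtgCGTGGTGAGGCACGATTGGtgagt
The capitals of *Hspe1* and *Hspd1* are 2 overlapping matches of the heat shock element. They lie at -89 to -72 from the *Hspe1* start. From the start site of the *Hspd1* window at chr1:55087883-55088182 they lie at -144 to -127. The other *Hspd1* window, chr1:55088194-55088493, held no heat shock element, and the matched bases lie within the annotated span of *Hspd1* given below. *Hsph1* holds a match after its start site, which is not printed. In all, 4 of 8 member windows held a heat shock element, against 198 of 32851 promoter windows (0.603%). These member windows are not independent: *Hspd1* and *Hspe1* share the same bases, and the *Hsph1* windows overlap and hold the same match. The ER stress element lay at -65 to -47 in *Hspa5* and in both orientations in *Hsp90b1*, in 2 of 8 member windows and 39 of 32851 windows in all (0.119%). A match of letters is a description and not a binding site.

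By the GENCODE M21 annotation of GRCm38, *Hspa8* lies at chr9:40800984-40810087, *Hspa4* at chr11:53259814-53300457, *Hsph1* at chr5:149614287-149636376, *Hsp90aa1* at chr12:110690605-110702728 and *Hsp90ab1* at chr17:45567775-45573271. *Hspa5* lies at chr2:34771970-34777547, *Hsp90b1* at chr10:86690209-86705509, *Hspd1* at chr1:55077835-55088243, *Hspe1* at chr1:55088132-55091307 and *Hspa9* on chromosome 18. The last 500 bases of the transcript used fall in 1 exon for 6 members, in 2 exons for *Hspa8* and *Hsp90ab1*, in 3 for *Hsp90b1* and in all 4 exons of the short *Hspe1*.

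Reads of a QuantSeq library start near the 3′ end of a transcript, so that values were not divided by transcript length. Levels are given as CPM, the reads of a gene scaled to the library's total of reads on genes. Reads that align to more than 1 place are not counted on a gene, and the ends of these transcripts differed in how many such places they share. Of the 451 windows of 50 bases in the last 500 bases of each transcript, 90.5% of those of *Hspa8* were also found elsewhere in the genome, at a median of 3 other sites. The share was 69.8% for *Hspe1*, 66.3% for *Hspd1*, 28.6% for *Hsp90ab1* and 10.4% for *Hsp90b1*. It was 7.1% for *Hspa9*, 6.2% for *Hsp90aa1* and 0.0% for *Hspa5*, *Hsph1* and *Hspa4*. The counts of *Hspa8*, *Hspd1* and *Hspe1* thus come from a part of their ends, and levels were compared between libraries and not between genes. The 11 annotated copies of members (such as *Hspd1-ps3*) held at most 34 reads in a library.

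**Figure D1:**
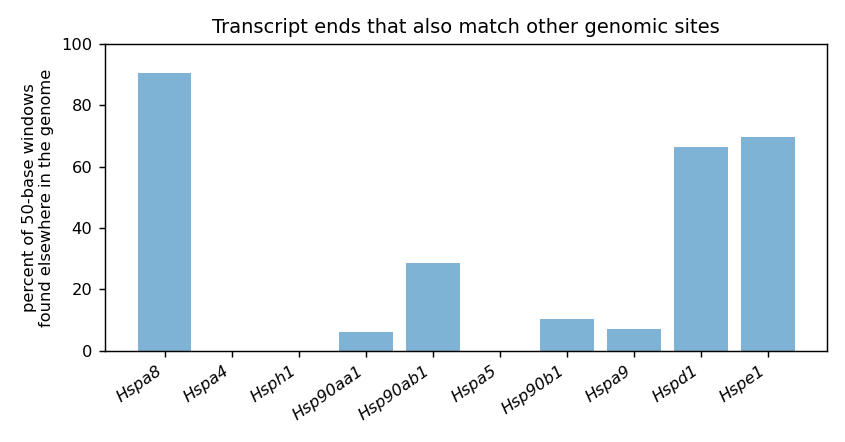
Percent of the 50-base windows in the last 500 bases of each chaperone transcript that are also found elsewhere in the mouse genome (bars, axis from 0 to 100). The end of *Hspa8* reaches 90.5%, those of *Hspe1* and *Hspd1* 69.8% and 66.3%, and those of *Hspa4*, *Hsph1* and *Hspa5* 0.0%.

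Libraries held 2044853 to 11206420 reads on genes, and 3 counts corresponded to 0.268 to 1.47 CPM, a floor that covers counting error only. The members took 1.50% to 3.57% of these reads. The RIP EV libraries stood apart: 43.4% and 23.7% of the 10754 tested transcripts had 0 counts there, against 0.31% and 0.52% in RIP Flag-eIF4A2, and 45.8% and 29.7% of their reads lay outside exons. Their biological coefficient of variation, the spread between replicates, was 171%, and 23.1% to 30.1% in the other groups. *Eif4a2* itself had 53.8 and 94.2 CPM in input EV, 86.8 and 69.1 in input Flag-eIF4A2, 56.7 and 125.9 in RIP EV, and 76.7 and 47.4 in RIP Flag-eIF4A2. Whether these 3′ reads lie within the deleted part was not analysed here, so that they check no label. All 11 ESC markers had at least 1 CPM in the inputs and in RIP Flag-eIF4A2 and 10 of 11 in RIP EV, where *Pou5f1* had 0 counts. The 4 formative and primed markers summed to 102.64 to 305.27 CPM, with *Dnmt3b* alone at 76.0 to 276 CPM. The 6 primitive endoderm markers summed to at most 3.61 CPM. The 6 fibroblast feeder markers summed to 3.59 to 6.86 CPM, apart from 76.29 in RIP EV replicate 1.

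RIP Flag-eIF4A2 differed from RIP EV for 8 of the 10 chaperones, and not in 1 direction: 4 were higher and 4 lower (quasi-likelihood test of edgeR, adjusted over 10754 transcripts by the Benjamini-Hochberg method, threshold 0.05). *Hspa9*, *Hspd1*, *Hspe1* and *Hsph1* were higher, that is, all mitochondrial members and 1 exchange factor. *Hspa8*, *Hsp90aa1*, *Hsp90b1* and *Hspa4* were lower. Of all tested transcripts 24.8% were called higher and 5.46% lower, and the median log2 fold change was 0.64 over all transcripts and -0.13 over the members. With library size alone in place of TMM factors, the median of all moved to 0.91 and that of the members to 0.15, so that single changes are to be read against this shift. In CPM, 5 members had both RIP Flag-eIF4A2 values over both RIP EV values (51.9% of all transcripts) and 4 had both under them (12.1%). The test's calls rest on a spread shared by all 8 libraries. Fitted on the 4 RIP libraries alone, edgeR called 0 of the 10, with adjusted p-values of 0.065 to 0.242 for these 8. In that fit 6 members had an unadjusted p under 0.05, as had 3149 of the 10754 transcripts. DESeq2 on the same 4 libraries called 7. Counts of members called by DESeq2, here and below, stand without a share over all transcripts and are not read as results about the members. In what follows, a value in parentheses beside a log2 change is its adjusted p by edgeR. Each SE comes from the fit on 8 libraries, as the size of the change over the square root of its F statistic. It takes in the spread of all groups and is not an SE of the compared groups alone.

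In RIP EV against input EV, 2 members were higher (*Hspa8* and *Hsp90b1*), against 4.5% of all transcripts, and 2 lower (*Hspd1* and *Hspe1*), against 26.3%. In CPM, both RIP EV libraries lay above both inputs for 4 members (14.6% of all transcripts) and below for 4 (44.9%). DESeq2 on 8 libraries called 4 in each direction. On the 4 libraries edgeR called none, with 5 members at an unadjusted p under 0.05, against 3175 of 10754 transcripts. The same RIP EV libraries enter this comparison and the one of the RIPs, so that the values of each are given side by side for each gene and neither stands as evidence for the other.

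Flag-eIF4A2 RIP and its own input differed for none of the 10 members by edgeR on 8 libraries. At an unadjusted p under 0.05 there was 1 member (*Hspa8*), against 963 of 10754 transcripts. The test called 0.0% of all transcripts higher and 0.0558% lower. The RIP EV libraries take no part in this comparison other than through the shared spread. Fitted to those 4 libraries, edgeR called *Hspa8* and *Hspd1* lower and no member higher, against 8.46% and 8.44% of all transcripts. DESeq2 on these 4 libraries also called 2 lower, and DESeq2 on 8 libraries 1. Both RIP libraries lay above both inputs in CPM for 4 members (45.8% of all transcripts) and below for 2 (18.7%). On TMM-scaled CPM, 1 member lay above (31.7%) and 6 below (30.0%). The direction of small differences in this comparison therefore depends on the scale, and *Hspa9* was above and *Hspa8* and *Hspd1* below on both.

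**Figure D2:**
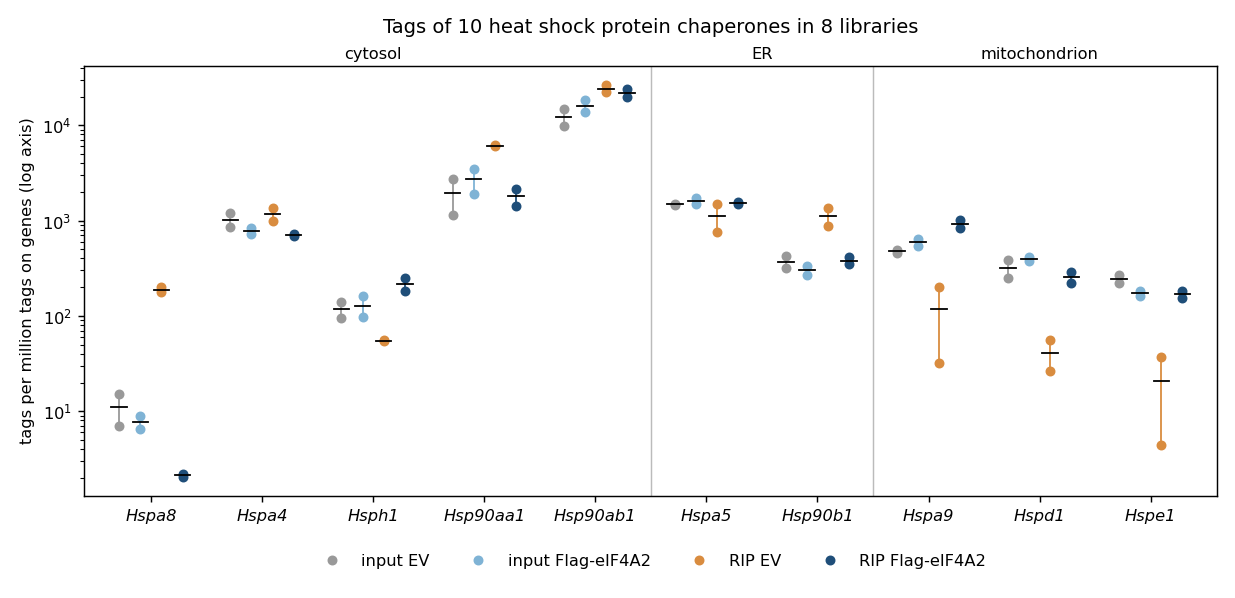
CPM of each chaperone in the 8 libraries (points, log axis), grouped by the compartment of the protein, with the group mean as a black bar. The RIP EV libraries lie above every other library for *Hspa8*, *Hsp90aa1* and *Hsp90b1* and below every other library for *Hsph1*, *Hspa9*, *Hspd1* and *Hspe1*.

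*Hspa8* encodes HSC70, the constitutive cytosolic HSP70. It had 7.01 and 15.0 CPM in input EV, 6.49 and 8.83 in input Flag-eIF4A2, 176 and 200 in RIP EV, and 2.05 and 2.21 in RIP Flag-eIF4A2. In reads these are 51 and 48, 30 and 55, 360 and 670, and 23 and 22. The RIP EV libraries were above all others and the RIP Flag-eIF4A2 libraries below all others. The log2 fold change of RIP Flag-eIF4A2 against RIP EV was -6.73 ± 0.64 (SE, n = 2 against 2, edgeR adjusted p = 0.00662), the 34th lowest of 10754. RIP EV against input EV gave 4.12 ± 0.56 (edgeR adjusted p = 0.00805), the 55th highest. Against its own input, RIP Flag-eIF4A2 gave -2.14 ± 0.53 (edgeR adjusted p = 0.278). The edgeR adjusted p was 0.0162 on the 4 libraries and 0.443 with the replicate number as a block. With a library left out, the log2 value ran from -2.32 to -1.92. The counted reads come from the 9.5% of end windows found only at this gene or from outside the last 500 bases, and whether the RIP EV reads arise from the same windows was not tested.

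Of the members, *Hspa4* and *Hsph1* encode HSP110 proteins. For *Hspa4*, CPM were 858 and 1187 in input EV, 838 and 722 in input Flag-eIF4A2, 996 and 1359 in RIP EV, and 723 and 697 in RIP Flag-eIF4A2. The RIP Flag-eIF4A2 libraries lay close to each other and below both RIP EV libraries. *Hspa4* was lower in RIP Flag-eIF4A2 than in RIP EV by -1.01 ± 0.26 (log2, SE, edgeR adjusted p = 0.0262), a call that ended with library size alone (-0.73, adjusted p = 0.0993), without RIP EV replicate 2 (-0.68, 0.105), and without RIP Flag-eIF4A2 replicate 1 (-0.90, 0.179) or 2 (-0.88, 0.179). RIP against input was 0.20 ± 0.26 in EV cells and -0.44 ± 0.26 in Flag-eIF4A2 cells, neither past the threshold.

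*Hsph1* encodes HSP105, the heat-inducible HSP110. It had 139 and 96.1 CPM in input EV, 160 and 96.5 in input Flag-eIF4A2, 54.8 and 55.3 in RIP EV, and 252 and 182 in RIP Flag-eIF4A2. The RIP libraries of Flag-eIF4A2 cells lay above every other library and those of EV cells below every other one. RIP Flag-eIF4A2 exceeded RIP EV by 1.69 ± 0.43 (log2, SE, edgeR adjusted p = 0.0262). Without RIP Flag-eIF4A2 replicate 1 the value was 1.58 (0.121), and without replicate 2 it was 2.01 (0.0531), both past no threshold. Against input the values were 0.44 ± 0.42 for Flag-eIF4A2 cells and -1.12 ± 0.43 for EV cells (edgeR adjusted p = 0.966 and 0.0977), and the second passed without either RIP EV library (0.0447 and 0.0344). The ratio of *Hsph1* to *Hspa4* reads, which no scaling of a library can change, was 0.348 and 0.261 in RIP Flag-eIF4A2, 0.081 to 0.191 in the 4 inputs, and 0.055 and 0.0407 in RIP EV. It also takes in the change of *Hspa4*, which was itself lower in RIP Flag-eIF4A2 than in RIP EV. Ratios of other gene pairs were not computed as a background.

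Cytosolic HSP90 comes from a heat-inducible gene, *Hsp90aa1*, and a constitutive one, *Hsp90ab1*. *Hsp90aa1* had 2741 and 1133 CPM in input EV, 3504 and 1900 in input Flag-eIF4A2, 6017 and 6181 in RIP EV, and 1434 and 2152 in RIP Flag-eIF4A2. The RIP EV libraries were above all others, while the RIP Flag-eIF4A2 libraries overlapped both input groups. The RIPs differed by -2.04 ± 0.56 (log2, SE, edgeR adjusted p = 0.0331), and without RIP Flag-eIF4A2 replicate 1 or 2 by -1.65 (0.219) and -2.27 (0.103). RIP EV against input EV gave 1.61 ± 0.55 (edgeR adjusted p = 0.069), which passed under library size alone (0.0498), without input EV replicate 1 (2.49, 0.0346) and without RIP EV replicate 1 (0.0237) or 2 (0.0205). RIP Flag-eIF4A2 against its input gave -0.90 ± 0.54 (edgeR adjusted p = 0.788).

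*Hsp90ab1* gave more reads than any other member in every library, with 14952 and 9707 CPM in input EV, 18194 and 13911 in input Flag-eIF4A2, 26262 and 22048 in RIP EV, and 19714 and 23882 in RIP Flag-eIF4A2. In CPM both RIP groups lay above both inputs of their cells, and the 2 RIP groups overlapped. No comparison passed the threshold: the log2 values were 0.95 ± 0.35 for RIP EV against input EV (edgeR adjusted p = 0.0936), 0.14 ± 0.35 for RIP Flag-eIF4A2 against input, and -0.43 ± 0.35 between the RIPs. The first passed without input EV replicate 1 (1.38, 0.0431). The paralogs moved apart in the RIPs: reads of *Hsp90aa1* over *Hsp90ab1* came to 0.0727 and 0.0901 in RIP Flag-eIF4A2, 0.229 and 0.28 in RIP EV, and 0.117 to 0.193 in the inputs, and these 3 sets did not overlap.

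*Hspa5* encodes BiP, the HSP70 of the ER lumen and a common readout of ER stress. It had 1483 and 1464 CPM in input EV, 1487 and 1717 in input Flag-eIF4A2, 759 and 1496 in RIP EV, and 1509 and 1554 in RIP Flag-eIF4A2. Of these 8 libraries 7 lay between 1464 and 1717 CPM, and RIP EV replicate 1 lay lower. RIP Flag-eIF4A2 against RIP EV was 0.17 ± 0.33 (log2, SE, edgeR adjusted p = 0.764) and turned to -0.22 without RIP EV replicate 1. Without RIP EV replicate 2, RIP EV against input EV went from -0.41 ± 0.33 (edgeR adjusted p = 0.43) to -1.01 (0.0326).

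*Hsp90b1* encodes GRP94, the HSP90 of the ER. It had 315 and 422 CPM in input EV, 330 and 269 in input Flag-eIF4A2, 1361 and 874 in RIP EV, and 411 and 348 in RIP Flag-eIF4A2. RIP EV was above every other library, and RIP Flag-eIF4A2 lay above its own inputs and within the range of all 4. RIP EV exceeded input EV by 1.61 ± 0.32 (log2, SE, edgeR adjusted p = 0.0112), or by 1.47 (0.0707) without input EV replicate 1. RIP Flag-eIF4A2 was below RIP EV by -1.85 ± 0.32 (edgeR adjusted p = 0.00729), or by -1.63 (0.0595) without RIP Flag-eIF4A2 replicate 2, and differed from its input by 0.03 ± 0.31. The gene 1810014B01Rik lies on the opposite strand over the same transcript end. It had 94 and 29 reads in input EV, 48 and 36 in input Flag-eIF4A2, 1018 and 524 in RIP EV, and 36 and 97 in RIP Flag-eIF4A2. As the strand setting of the counting is not given in the sources used here, how reads over the shared end were assigned to the 2 genes was not determined. The ER pair did not move together: reads of *Hsp90b1* over *Hspa5* were 1.79 and 0.584 in RIP EV and 0.157 to 0.288 in the other 6 libraries.

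All 3 mitochondrial members were higher in RIP Flag-eIF4A2 than in RIP EV. Their log2 changes between the RIPs all lay between the quartiles of all tested transcripts (-0.59 and 3.09). For RIP EV against input EV the quartiles were -3.07 and 0.63, and only *Hspe1* lay below them. *Hspa9* encodes mortalin, the HSP70 of the matrix that also drives protein import. It had 493 and 462 CPM in input EV, 645 and 538 in input Flag-eIF4A2, 32.3 and 202 in RIP EV, and 1016 and 826 in RIP Flag-eIF4A2. RIP Flag-eIF4A2 lay above and RIP EV below every other library, and the RIP EV libraries differed from each other by a larger fold than any other pair of this gene. Between the RIPs the log2 fold change was 2.71 ± 0.75 (SE, edgeR adjusted p = 0.0358). It kept its direction but not its call without either RIP Flag-eIF4A2 library (2.69, 0.112 and 2.96, 0.082) or any 1 of the 4 inputs (0.0718 to 0.0753). RIP against input gave 0.33 ± 0.71 in Flag-eIF4A2 cells and -2.06 ± 0.74 in EV cells (edgeR adjusted p = 1 and 0.0808), and the latter was -1.29 (0.0121) without RIP EV replicate 1 and -3.94 (1.66e-05) without replicate 2. The ratio to *Hspa4* reads was 1.41 and 1.19 in RIP Flag-eIF4A2, 0.389 to 0.769 in the inputs, and 0.0324 and 0.148 in RIP EV. This ratio too takes in the lower *Hspa4* values of RIP Flag-eIF4A2 against RIP EV.

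*Hspd1*, which encodes HSP60, had 382 and 251 CPM in input EV, 419 and 376 in input Flag-eIF4A2, 26.4 and 55.3 in RIP EV, and 288 and 222 in RIP Flag-eIF4A2. RIP EV lay far below the other 6 libraries, and RIP Flag-eIF4A2 lay below its own inputs. RIP EV against input EV gave -2.98 ± 0.46 (log2, SE, edgeR adjusted p = 0.00805) and the RIPs differed by 2.36 ± 0.45 (edgeR adjusted p = 0.00906), both past the threshold whichever single library was left out. RIP Flag-eIF4A2 against its input gave -0.95 ± 0.43 (edgeR adjusted p = 0.594), and 0.0411 by edgeR on the 4 libraries.

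Its partner *Hspe1*, which encodes HSP10, had 223 and 268 CPM in input EV, 161 and 182 in input Flag-eIF4A2, 4.40 and 37.1 in RIP EV, and 184 and 156 in RIP Flag-eIF4A2. In RIP EV replicate 1 these were 9 reads. RIP Flag-eIF4A2 overlapped its inputs, and RIP EV lay below the other 6 libraries. RIP EV against input EV gave -3.57 ± 0.86 (log2, SE, edgeR adjusted p = 0.0207), and -3.64 (0.072) and -3.52 (0.0793) without input EV replicate 1 or 2. The RIPs differed by 2.75 ± 0.83 (edgeR adjusted p = 0.0472), and the call ended without any 1 of the inputs (0.0944 to 0.0988) or without RIP Flag-eIF4A2 replicate 1 (0.138) or 2 (0.11), with the value between 2.76 and 2.97. Without RIP EV replicate 1 it was 1.94 and without replicate 2 it was 5.07. RIP Flag-eIF4A2 against its input was -0.32 ± 0.77. *Hspe1* over *Hspd1* reads came to 0.639 and 0.701 in RIP Flag-eIF4A2, 0.385 and 0.485 in its input, 0.584 and 1.07 in input EV, and 0.167 and 0.67 in RIP EV.

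**Figure D3:**
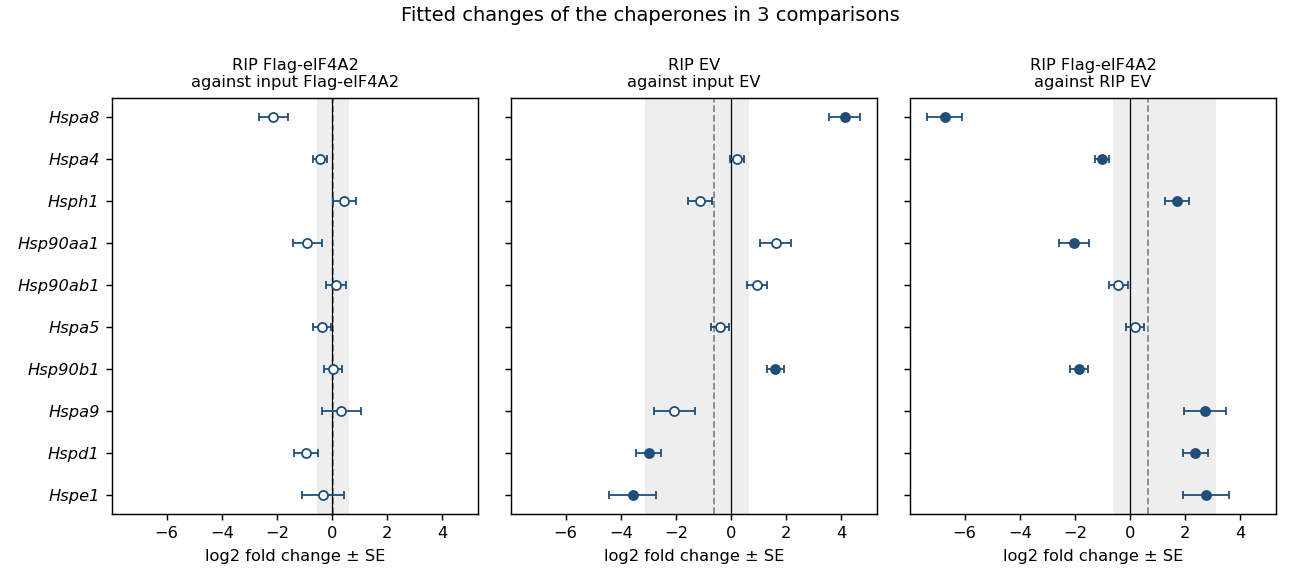
Log2 fold change ± SE of each chaperone (edgeR on 8 libraries) in 3 comparisons, with filled points past the adjusted p threshold of 0.05, the median of all 10754 transcripts as a dashed line and their middle 50% in grey. No point is filled in the comparison of Flag-eIF4A2 RIP with its input, while RIP EV is involved in both panels with filled points, which share those libraries.

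The share of the members' reads from each compartment summed up these differences. Mitochondrial members gave 5.81% ± 1.03 (SD, n = 2) of the 10 genes' reads in input EV, 5.16% ± 0.57 in input Flag-eIF4A2, 4.92% ± 1.29 in RIP Flag-eIF4A2 and 0.541% ± 0.515 in RIP EV. RIP EV was the only group whose libraries, at 0.177% and 0.905%, overlapped with no other. With *Hsp90ab1* left out, the mitochondrial share was 25.6% and 19.6% in RIP Flag-eIF4A2, 16.2% to 18.9% in the 4 inputs, and 0.669% and 2.81% in RIP EV. The cytosolic share of these 9 genes was 41.4% and 49.4% in RIP Flag-eIF4A2, 45.9% to 59.7% in the inputs, and 76.8% and 74.5% in RIP EV. The ER share was 33.0% and 31.0% in RIP Flag-eIF4A2, within the 24.1% to 35.6% of the inputs, and 22.5% and 22.7% in RIP EV. With 2 libraries against 2, an exact permutation test cannot go below a two-sided p of 0.333, and none was run on these shares.

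**Figure D4:**
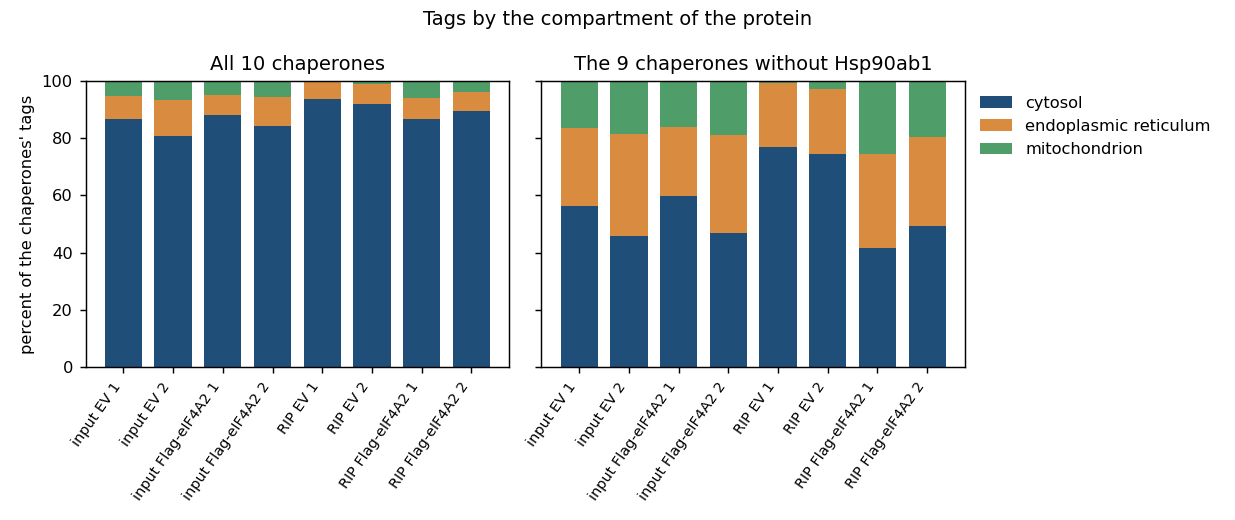
Percent of the chaperones' reads from genes of the cytosol, the ER and the mitochondrion in each library (stacked bars from 0 to 100), for all 10 members and for the 9 without *Hsp90ab1*. The mitochondrial part is smallest in the 2 RIP EV libraries (0.177% and 0.905% of all 10) and is 4.01% and 5.83% in RIP Flag-eIF4A2.

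The inputs of the 2 cell lines were compared to see whether re-expressed Flag-eIF4A2 changed the chaperone mRNAs themselves. No member passed the threshold under edgeR on 8 libraries or any alternative. None had an unadjusted p under 0.05, except *Hsp90aa1* without input EV replicate 1, and edgeR on 8 libraries called 0.0% of all transcripts in either direction. The fitted log2 values ran from -0.50 ± 0.77 (*Hspe1*) to 0.47 ± 0.54 (*Hsp90aa1*). Both Flag-eIF4A2 inputs lay above both EV inputs for *Hspa5* and *Hspa9* (19.8% of all transcripts) and below for *Hspa4* and *Hspe1* (17.3%).

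The difference between cell lines in RIP over input tests Flag-eIF4A2 against the background and the inputs at once. *Hspa8* alone passed, with -6.25 ± 0.77 (log2, SE, edgeR adjusted p = 0.0176), so that 1 of 10 members was lower, against 2.1% of all transcripts, and none was higher, against 19.2%. This call ended without input EV replicate 1 (-5.84, 0.0523), without input Flag-eIF4A2 replicate 1 (-6.43, 0.0746) or 2 (-6.03, 0.0723), and without RIP Flag-eIF4A2 replicate 1 (-6.07, 0.0595) or 2 (-6.21, 0.0556). *Hsp90b1* was at -1.57 ± 0.45, just short of the threshold, *Hspd1* at 2.03 ± 0.61 (0.06), *Hsp90aa1* at -2.51 ± 0.77 (0.0647) and *Hspe1* at 3.25 ± 1.12 (0.0965). Without RIP EV replicate 1, 7 members passed, and 7 passed without replicate 2, in each case 4 higher and 3 lower. In these fits 35.9% and 54.0% of all transcripts were called higher and 11.8% and 12.4% lower.

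The related list placed the members among their partners. Of its 83 tested genes, 11 were higher and 9 lower in RIP Flag-eIF4A2 than in RIP EV, against 24.8% and 5.46% of all transcripts. In RIP EV against input EV, 3 were higher and 10 lower, against 4.5% and 26.3% of all. None differed between RIP Flag-eIF4A2 and its input (edgeR on 8 libraries) or between the inputs. With edgeR on 4 libraries, 3 were higher and 10 lower in RIP Flag-eIF4A2 than in its input, against 8.44% and 8.46% of all transcripts. DESeq2 on 8 libraries called 1 higher and 5 lower, for which no share over all transcripts is given. The median log2 fold change of the list was 0.01 between the RIPs, against 0.64 for all transcripts, and -0.26 for RIP Flag-eIF4A2 against input, against 0.02.

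ER folding factors included the related genes called lowest between the RIPs. *Calr*, the lectin chaperone calreticulin, had 939 and 1085 CPM in input EV, 986 and 862 in input Flag-eIF4A2, 4024 and 3373 in RIP EV, and 573 and 605 in RIP Flag-eIF4A2. The RIPs differed by -2.93 ± 0.25 (log2, SE, edgeR adjusted p = 0.00662) and RIP EV exceeded its input by 1.87 ± 0.24 (edgeR adjusted p = 0.00805). Its membrane-bound relative calnexin, *Canx*, had 454 and 747, 519 and 339, 2271 and 1597, and 348 and 415 CPM in the same order of groups. The RIPs differed by -2.62 ± 0.38 and RIP EV exceeded its input by 1.70 ± 0.37, or 1.44 (0.0888) without input EV replicate 1. Both genes, like *Hsp90b1*, were thus highest in RIP EV. Between the RIPs, 2 of 10 ER folding factors were called lower and none higher, against 5.46% and 24.8% of all transcripts.

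Of 35 J-domain proteins tested, 4 were higher and 5 lower between the RIPs, against 24.8% and 5.46% of all transcripts. *Dnajb1*, the main cytosolic HSP40, had 145 and 232 CPM in input EV, 146 and 183 in input Flag-eIF4A2, 105 and 181 in RIP EV, and 49.1 and 56.7 in RIP Flag-eIF4A2, below all others. Against its input this was -1.94 ± 0.40 (log2, SE, edgeR adjusted p = 0.2), and 0.00393 by edgeR on the 4 libraries. *Sec63*, the J-domain protein of the ER translocon, had 146 and 197 CPM in input and 76.3 and 71.2 in RIP Flag-eIF4A2 (-1.52 ± 0.38, 0.29, and 0.00788 on the 4 libraries). *Dnajc13*, an endosomal J-domain protein, had 51.9 and 30.5 in input and 169 and 158 in RIP (1.68 ± 0.84, 0.669, and 0.0111 on the 4 libraries). *Dnajc21*, a ribosome biogenesis factor, had 615 and 841 CPM in RIP EV and 173 and 296 in RIP Flag-eIF4A2 (-1.90 ± 0.56, edgeR adjusted p = 0.0444). That call ended without input EV replicate 1 or 2 or either RIP Flag-eIF4A2 library (0.0824, 0.0826, 0.265 and 0.0977). *Dnajc7*, which also binds HSP90, had 284 and 366 CPM in input EV and 981 and 557 in RIP EV (1.25 ± 0.38, edgeR adjusted p = 0.0473). It lost its call without any single library other than RIP EV replicate 2 (0.0676 to 0.211), with 0.74 without RIP EV replicate 1.

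Several genes called higher against RIP EV had 0 counts in both RIP EV libraries, so their difference is a lower bound against 3 counts per library (1.18 CPM). *Sil1*, the exchange factor of BiP, had 32.7 and 32.5 CPM in RIP Flag-eIF4A2, at least 27.6-fold higher, and 12.5 and 17.5 in input EV. *Hspb2*, a small heat shock protein, had 16.0 and 10.7 CPM in RIP Flag-eIF4A2 (at least 11.3-fold). It had only 1.24 and 1.25 CPM in input EV, close to the floor, and 9.74 and 6.42 in input Flag-eIF4A2. *Dnajb14*, an ER-membrane J-domain protein, had 12.2 and 12.3 in RIP Flag-eIF4A2 (at least 10.4-fold). *Dnajb9*, an ER J-domain protein that acts on BiP, had 4.02 and 1.80 CPM in RIP Flag-eIF4A2 (at least 2.46-fold), and 4.68 and 12.5 in input EV, at least 7.26-fold above RIP EV. *Dnajc30*, a mitochondrial J-domain protein, had 10.4 and 8.32 CPM in RIP Flag-eIF4A2, at least 7.94-fold higher than RIP EV. Zero counts were common in RIP EV, as given above.

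In RIP over input, 6 of the 83 related genes were higher and 3 lower in Flag-eIF4A2 cells than in EV cells, against 19.2% and 2.1% of all transcripts. *Calr* (-2.82 ± 0.33, edgeR adjusted p = 0.0176), *Canx* (-2.18 ± 0.52, 0.028) and *Hsf2* were lower, and *Sil1*, *Dnajc30* and *Dnajb14* were among the higher ones. The calls of these 6 genes ended without either RIP Flag-eIF4A2 library (0.0556 to 0.194) and without any 1 input, except that *Sil1*, *Dnajc30* and *Calr* kept theirs without input EV replicate 2.

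Among the HSP90 co-chaperones 2 of 16 were higher and 1 lower between the RIPs, against 24.8% and 5.46% of all transcripts. The phosphatase *Ppp5c* had 34.2 and 48.8 CPM in input Flag-eIF4A2 and 170 and 114 in RIP Flag-eIF4A2 (1.47 ± 0.55, log2, SE, edgeR adjusted p = 0.5, and 0.0129 on the 4 libraries). *Stip1*, which bridges HSP70 and HSP90, had 547 and 368 CPM in input EV and 599 and 850 in input Flag-eIF4A2 (0.66 ± 0.35, edgeR adjusted p = 1). The ER stress-induced gene *Creld2* had 14.3 and 15.7 CPM in input and 47.7 and 46.7 in RIP Flag-eIF4A2 (1.35 ± 0.55, edgeR adjusted p = 0.534, and 0.014 on the 4 libraries). The small heat shock protein *Hspb8* had 245 and 179 CPM in input and 77.7 and 57.5 in RIP Flag-eIF4A2 (-1.96 ± 1.35, edgeR adjusted p = 0.856, and 0.00502 on the 4 libraries), and in RIP EV 2.44 and 161. *Hsf2*, a heat shock transcription factor, had 126 and 120 CPM in RIP EV and 53.2 and 55.7 in RIP Flag-eIF4A2. Its RIP over input differed between the cell lines by -1.89 ± 0.51 (edgeR adjusted p = 0.0414), with 0.0894 to 0.194 without any single library other than the RIP EV ones.

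**Figure D5:**
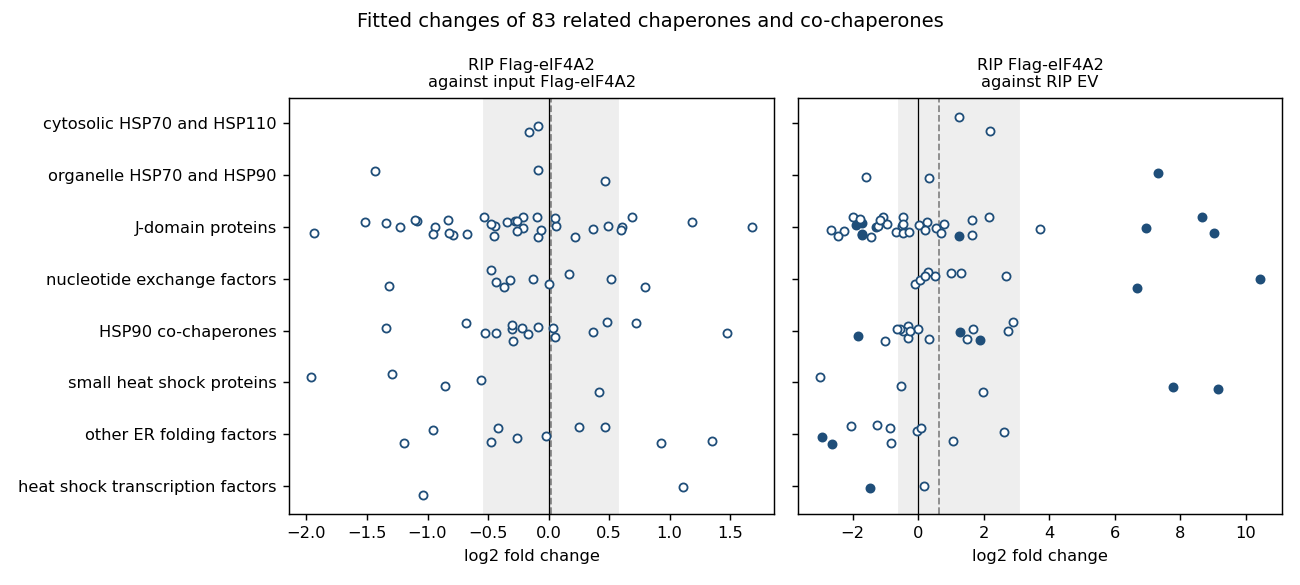
Log2 fold change of the 83 related genes by class (edgeR on 8 libraries; the 2 panels have their own axes), with filled points past the adjusted p threshold of 0.05, the median of all transcripts as a dashed line and their middle 50% in grey. No gene is filled against input, and 11 higher and 9 lower genes are filled between the RIPs, of which points above 6 are genes with 0 counts in RIP EV whose fitted value is no bound.

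Between the inputs, and among related genes with at least 10 CPM in all inputs, the highest fitted values were those of *Sil1* (0.67 ± 0.72), *Stip1* and *Dnajb6* (0.54 ± 1.75), and at the other end *Dnajc25* (-1.08 ± 1.84), *Pdia4* (-0.98 ± 0.76) and *P4hb* (-0.86 ± 0.49), all with an edgeR adjusted p of 1. The SEs of *Dnajb6* and *Dnajc25* also take in RIP EV, which is not part of this comparison. There *Dnajb6* had 0 and 138 CPM and *Dnajc25* 0 and 103 CPM. *Pdia4* and *P4hb* encode protein disulfide isomerases of the ER.

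Over the 10 members, Spearman's rank correlation of the Flag-eIF4A2 RIP over input change was 0.28 with transcript length, 0.01 with GC content and -0.36 with the share of end windows found elsewhere. For RIP EV over input EV these were 0.12, -0.3 and 0.01. The points share libraries, and the values are descriptions over 10 genes.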

How the data were processed

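RIP and input RNA of 8 libraries were sequenced as QuantSeq 3′ reads. The deposited values are raw counts per gene: the authors trimmed reads with bbduk, aligned them to mm10 with STAR (version 2.5.3a) and counted them with HTSeq (version 0.11.2). Neither the annotation release nor the strand setting is stated in the sources used. Gene names came from GENCODE M21 (52403 of 52550 identifiers matched), and 5 summary rows were left out of totals.

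Transcripts with at least 1 CPM in all 4 inputs were tested (10754) with edgeR (version 4.0.16, R version 4.3.3), 1 model of all 8 libraries, TMM factors, quasi-likelihood tests and Benjamini-Hochberg adjustment, threshold 0.05. The code was tested on simulated data. Alternatives used library size alone, DESeq2 (version 1.42.0), DESeq2 size factors, 4 libraries, limma voom (version 3.58.1), other filters, a replicate block and left-out libraries. Counting error is the floor of 3 counts. Windows of 50 bases and promoter motifs were searched in GRCm38.p6 and its RefSeq table. The same-numbered libraries of different groups deviated together with correlations of -0.069 to 0.127 over transcripts, so the numbers were not taken as pairs.

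The members and lists were chosen with earlier results of these data known. Named were all members and, from the related list in each comparison, up to 3 rises and 3 falls with the largest fitted change among those past the threshold, or, where fewer than 3 passed, the 3 highest or lowest with at least 10 CPM in all inputs.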

Additional observations from a re-analysis of the deposited data

Results flagged for a closer look

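*Hspa8* had RIP over input changes that differed between Flag-eIF4A2 cells and EV cells by -6.25 (log2, edgeR adjusted p = 0.0176). For *Hsph1* and *Hspa9*, both RIP libraries lay above both inputs in Flag-eIF4A2 cells and below both inputs in EV cells (CPM), and the differences between the changes, 1.57 for *Hsph1* and 2.39 for *Hspa9*, did not pass edgeR's test (adjusted p = 0.131 and 0.171). For *Hsph1* the 2 sides overlap on TMM-scaled CPM in Flag-eIF4A2 cells. All 3 rest on the 2 RIP EV libraries, whose part in the result was not tested beyond leaving out each in turn.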

How the results depend on the processing

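Members past the threshold in RIP Flag-eIF4A2 against its input numbered 0, but 1 with DESeq2 on 8 libraries, 2 with DESeq2 or edgeR on 4 libraries, 2 with voom, and 0 to 1 with a library left out. Against RIP EV they numbered 8, but 0 with edgeR on 4 libraries, 1 with voom, and 2 to 8 with a library left out. For RIP EV against input EV they numbered 4, but 8 with DESeq2 on 8 libraries, 0 with edgeR on 4 libraries, 0 with voom, 7 without a filter, and 3 to 8 with a library left out. For the difference between cell lines the number was 1, but 2 with library size alone, 5 with DESeq2 on 8 libraries, 0 with voom, 5 without a filter, and 0 to 7 with a library left out. Related genes moved from 0 to 6 (DESeq2 on 8 libraries) and 13 (edgeR on 4) in the first comparison, from 20 to 0 (edgeR on 4) in the second, from 13 to 22 (DESeq2) and 0 (edgeR on 4) in the third, and from 9 to 16 (DESeq2) for the difference. Between the inputs the number stayed 0. Shares over all transcripts are given above for edgeR on 8 libraries and for edgeR on 4 libraries in the first comparison. For the difference between cell lines they are also given for the fits without a RIP EV library. The other counts in this section stand without such a share and are not read as results about the members or related genes. On TMM-scaled CPM, a scale chosen after seeing the data, members that did not overlap between RIP Flag-eIF4A2 and its input went from 4 above and 2 below to 1 above and 6 below.

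Some values near 0 changed sign with 1 library left out. Their ranges for RIP Flag-eIF4A2 against input were -0.062 to 0.374 for *Hsp90ab1* and -0.125 to 0.219 for *Hsp90b1*, which was -0.001 with DESeq2 on 4 libraries. *Hspa5* ranged from -0.215 to 0.821 between the RIPs and from -0.345 to 0.68 in the difference between cell lines, and *Hspa4* from -0.076 to 0.38 for RIP EV against input EV. Between the inputs *Hspa8* ranged from -0.878 to 0.063, *Hsph1* from -0.313 to 0.513, *Hsp90aa1* from -0.075 to 1.349 and *Hspd1* from -0.002 to 0.755. The cause was not tested.

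With the replicate number as a block, 6 members passed between the RIPs, since *Hspa9* (2.85, adjusted p = 0.0601) and *Hspe1* (3.01, 0.0592) no longer did, and no other member lost a call. Of the related genes named, *Dnajc21* (0.0802), *Dnajb9* (0.0558) and *Ppp5c* (0.0699) lost their call between the RIPs, *Dnajc7* (0.0843) that for RIP EV against input EV, and *Canx* (0.0597), *Hsf2* (0.0741) and *Hspb2* (0.0577) that for the difference between cell lines. Of 830 member values under alternatives, 710 kept their direction and side of the threshold, 48 passed newly, 57 no longer passed and 15 changed sign. Every comparison with RIP EV rests on 2 libraries in which many tested transcripts had 0 counts. Whether depth sets this was not tested.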
